A study of Gallus gallus with 5 samples.

Results

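The genes described here encode kinases of the MAP kinase cascade, subunits of phosphoinositide 3-kinase (PI3K), regulatory subunits of protein kinase A (PKA) and isoforms of protein kinase C (PKC), together with further genes whose symbols begin in the same way. They were chosen by symbol alone, as every feature whose RefSeq accession maps to a chicken symbol that starts with MAPK, MAP2K, MAP3K or MAP4K and a digit, with PRKC or PRKA and a letter, or with PIK3C or PIK3R. The rule found 47 rows, which are 46 distinct features out of 16143, since MAPK14 stood under 2 identifiers at the same interval with equal counts. Not all of them are what the family names say. The PRKA pattern took in 6 subunits of AMP-activated protein kinase (AMPK), an enzyme distinct from PKA, and 0 rows were matched by accession to a catalytic subunit of PKA. MAPK1IP1L and MAPK8IP1 (a scaffold of the JNK pathway) are MAPK-binding proteins and no kinases, and PRKCDBP (cavin-3) is a protein that binds PKC delta. The other 37 features are 9 MAP kinases, 4 MAP2 kinases, 5 MAP3 kinases, 5 catalytic and 5 regulatory subunits of PI3K, 3 regulatory subunits of PKA and 6 PKC isoforms. A further 28 chicken symbols that fit the rule, among them PRKACA, PRKACB, PRKCB, MAP3K7 and the MAP4 kinases, were matched to no row and were not analysed here; only 52.3% of rows received a symbol.

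These enzymes carry signals from receptors at the cell surface. In the MAP kinase cascade a MAP3 kinase phosphorylates a MAP2 kinase, which phosphorylates a MAP kinase on its activation loop; the ERK branch runs through MAP2K1 and MAP2K2, and the p38 branch through MAP2K3 and MAP2K6. Class I PI3K makes the lipid PIP3, which recruits AKT, and in B cells it acts downstream of the B-cell receptor. The class III enzyme PIK3C3 (VPS34) works with PIK3R4 (VPS15) in autophagy and endosome traffic. PKA is held inactive by its regulatory subunits until cyclic AMP binds them, PKC responds to diacylglycerol in most of its isoforms, and AMPK responds to low energy.

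RNA was sequenced from DT40, a chicken B-cell lymphoma line, which the labels describe as CAP-H KO cells. CAP-H is a subunit of condensin I, a complex that folds chromosomes for mitosis. Cells kept without doxycycline gave 3 libraries that the labels call CAP-H on (-dox, replicates 1, 2 and 3). Cells given the drug at 100 ng/ml gave 2 that they call CAP-H off (+dox, replicates 1 and 3), and the stated time is 36 h. Doxycycline and the CAP-H label change together, so an effect of the drug and one of the loss of CAP-H cannot be told apart. The labels do not give the number of clones or say that replicates were separate cultures, so the replicate error behind each p-value may be only technical.

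Depth was 12199522 to 22533003 counts per library. The gene of CAP-H, NCAPH, matched 0 rows and gives no check of the labels, on which every direction below rests. The share of counts held by the 10 most counted features was 6.46% to 6.63% per -dox library and 11.3% and 12.1% in the +dox ones. Of the fixed B-cell markers 11 of 13 had a row, and all 11 were tested, with summed levels of 1691 to 1738 CPM (counts scaled to the library total times its TMM factor) in the -dox libraries and 1341 to 1405 CPM in the +dox ones. Of these, 6 fell, 1 rose and 4 did not pass, where over all features 23.7% fell and 22.6% rose. Among 6 macrophage and granulocyte markers with a row, CD14 and MARCO stood at the smallest count in every library and the 4 tested ones fell, from summed levels of 77.2 to 82.6 CPM to 34.9 and 35 CPM. T-cell markers (5 with a row) summed to 88.3 to 98.9 CPM and 104 to 105 CPM, nearly all of it CD3D, while CD28 and CD3E were at or below 0.273 CPM. CD4 was at 2.71 CPM in +dox replicate 3 and at the smallest count in the other 4 libraries. Of 5 fibroblast markers with a row COL1A2 had means of 32 and 32.9 CPM, while POSTN, DCN, THY1 and COL3A1 stayed at or below 0.28 CPM. The only erythroid marker with a row, HBA1, stayed at or below 0.137 CPM.

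Levels below are CPM scaled by TMM. Values per library are listed as -dox replicates 1, 2 and 3, then +dox replicates 1 and 3, and means carry the SD with n = 3 and n = 2. Log2 fold changes are +dox minus -dox with their SE, adjusted p-values come from the quasi-likelihood test of edgeR, adjusted by Benjamini-Hochberg over all 10079 features tested, and "rose" and "fell" are used at an adjusted p of at most 0.05. In bulk RNA, less RNA of a gene per cell and fewer cells that express it cannot be told apart.

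At baseline, that is without doxycycline, levels of different genes were set side by side only per kilobase of the span that the files give, which includes introns. On this scale the order began with MAP2K2 (MEK2, which activates ERK) at 15.6 ± 0.649 CPM per kilobase, PRKAR1A (the type I alpha regulatory subunit of PKA) at 13.8 ± 0.448 and PIK3R4 at 12.1 ± 0.223. These 3 genes did not overlap each other in any of the 3 libraries. MAP2K3 at 8.86 ± 0.431 and PIK3CG, the gamma catalytic subunit of class I PI3K, at 8.55 ± 0.108 CPM per kilobase came next and overlapped each other. MAPK3 (ERK1) followed at 7.56 ± 0.399, MAPK1IP1L at 6.33 ± 0.222, PRKAB1 (an AMPK beta subunit) at 5.41 ± 0.207 and PIK3CD (the delta catalytic subunit, enriched in leukocytes) at 4.98 ± 0.217 CPM per kilobase, of which PRKAB1 and PIK3CD overlapped. At the other end, the genes from PRKCDBP at 0.0241 ± 0.0182 down to PRKCH at 0.00116 ± 0.000469 CPM per kilobase each overlapped the next in the order. Several of these stood near the smallest deposited count of 1. PRKCH had 3, 1 and 2 counts, and MAPK12 and PRKAA2 had 1 in every library. Their values per kilobase follow that smallest count and the span, and their order is no order of expression.

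**Figure D1:**
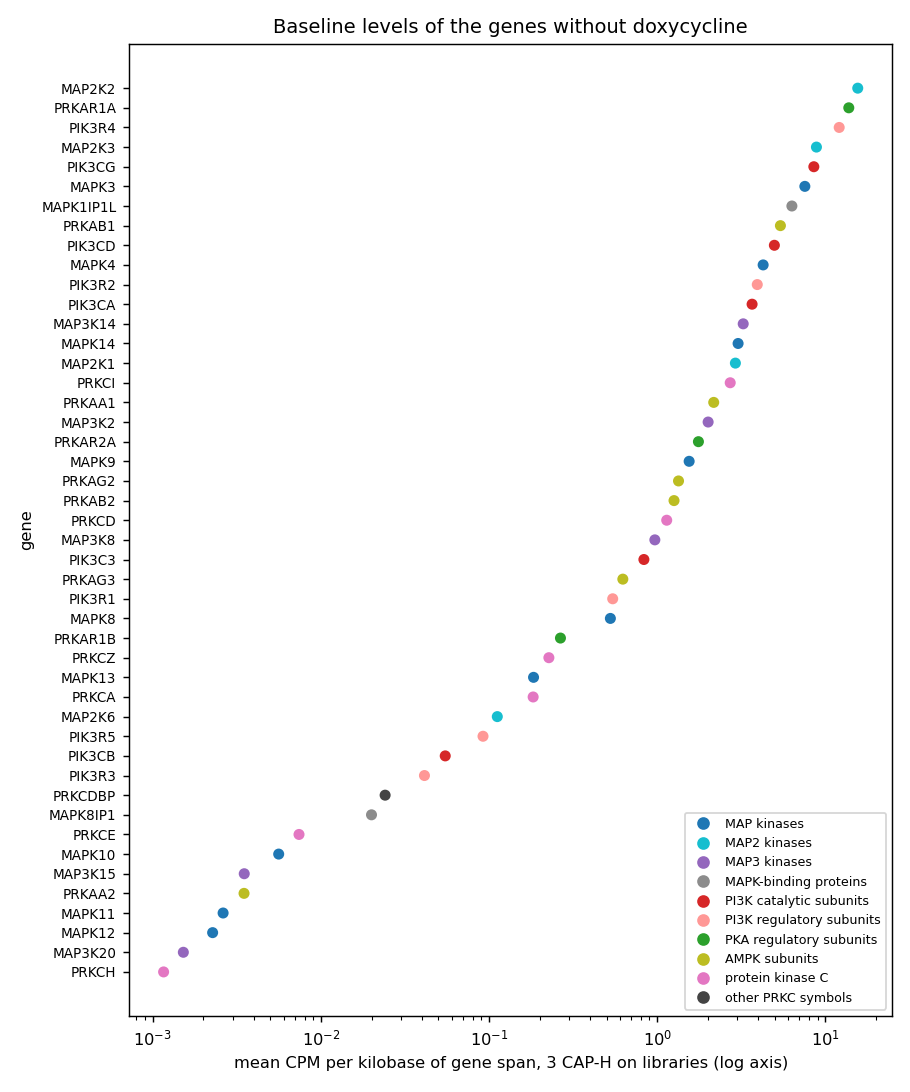
Mean level of each of the 46 genes in the 3 -dox libraries, in CPM per kilobase of gene span on a log axis, coloured by family. Members of most families lie far apart, as with the PKC isoforms, from PRKCI at 2.72 to PRKCH at 0.00116. PRKCH had 3, 1 and 2 counts in these libraries, near the smallest deposited count of 1, so the lowest points follow that count and the span.

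Summed over the members with a row, MAP2 kinases reached 27.5 ± 0.962 CPM per kilobase at baseline, catalytic subunits of PI3K 18.1 ± 0.101, MAP kinases 17.1 ± 0.226, regulatory subunits of PI3K 16.7 ± 0.0877 and regulatory subunits of PKA 15.8 ± 0.409. AMPK subunits came to 10.8 ± 0.268, MAPK-binding proteins to 6.35 ± 0.207, MAP3 kinases to 6.24 ± 0.204 and PKC isoforms to 4.28 ± 0.168 CPM per kilobase. MAPK-binding proteins and MAP3 kinases differed by less than their spread. These sums cover only the genes matched to a row, so families with many genes not analysed here are understated. The order of the families also depends on the division by span, introns included. In summed CPM without that division, catalytic subunits of PI3K reached 495 at baseline, regulatory subunits of PI3K 385 and MAP2 kinases 342. Which family holds the most RNA therefore cannot be told from either scale. Single members held large parts of several families. PRKAR1A held 87.2% of the summed level per kilobase of the PKA regulatory subunits, PIK3R4 72.3% of the PI3K regulatory subunits, PRKCI (the atypical isoform iota) 63.5% of the PKC isoforms, MAP2K2 56.8% of the MAP2 kinases and PIK3CG 47.3% of the PI3K catalytic subunits. In CPM without the division by span, PRKAR1A held 224 of 333, PIK3R4 278 of 385, PRKCI 62.4 of 129, MAP2K2 130 of 342 and PIK3CG 240 of 495. On that scale PRKCI, MAP2K2 and PIK3CG did not hold most of their families.

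After doxycycline more of the genes fell than rose, and the largest falls were those of PIK3CG and PIK3R4. A total of 38 of the 46 features passed the filter on low counts, and 17 of these changed, 14 lower and 3 higher. Over all features 46.3% changed, 23.7% lower and 22.6% higher, so the share of changed genes among the 38 was close to the background. With scaling by library size alone, which shifted the median of all features by -0.18 on the log2 scale, 20 of the 38 fell and 2 rose, where 4119 features fell and 1272 rose against 2387 and 2281 under TMM; DESeq2 on all features gave 16 and 1, and 3046 and 1191 features. Directions are therefore relative to the typical feature. The median log2 fold change of the 38 was -0.17 against 0.001 over all features, with 28 of them negative. Changes of at least 0.5 on the log2 scale were 5 falls, where the background was 9.32%, and 1 rise, where it was 10.1%. That rise is MAP3K15, also among the 3 higher, which had at most 16 counts per library. It passed the filter only through the +dox libraries, where it is high, so its rise is no independent result. In 23 of the 38 the groups did not overlap, 16 of them lower, against a background of 64.9% in either direction and 32.9% lower. The 23 include MAP3K15 and PIK3R5, each of which passed the filter only through the group where it is high. The 8 features that did not pass the filter had at most 18 counts in any library. They are MAPK10 (a JNK), MAPK11 and MAPK12 (of the p38 group), MAP3K20, MAPK8IP1, PRKAA2, PRKCH and PRKCDBP, of which MAPK12 and PRKAA2 were at the smallest count in every library.

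**Figure D2:**
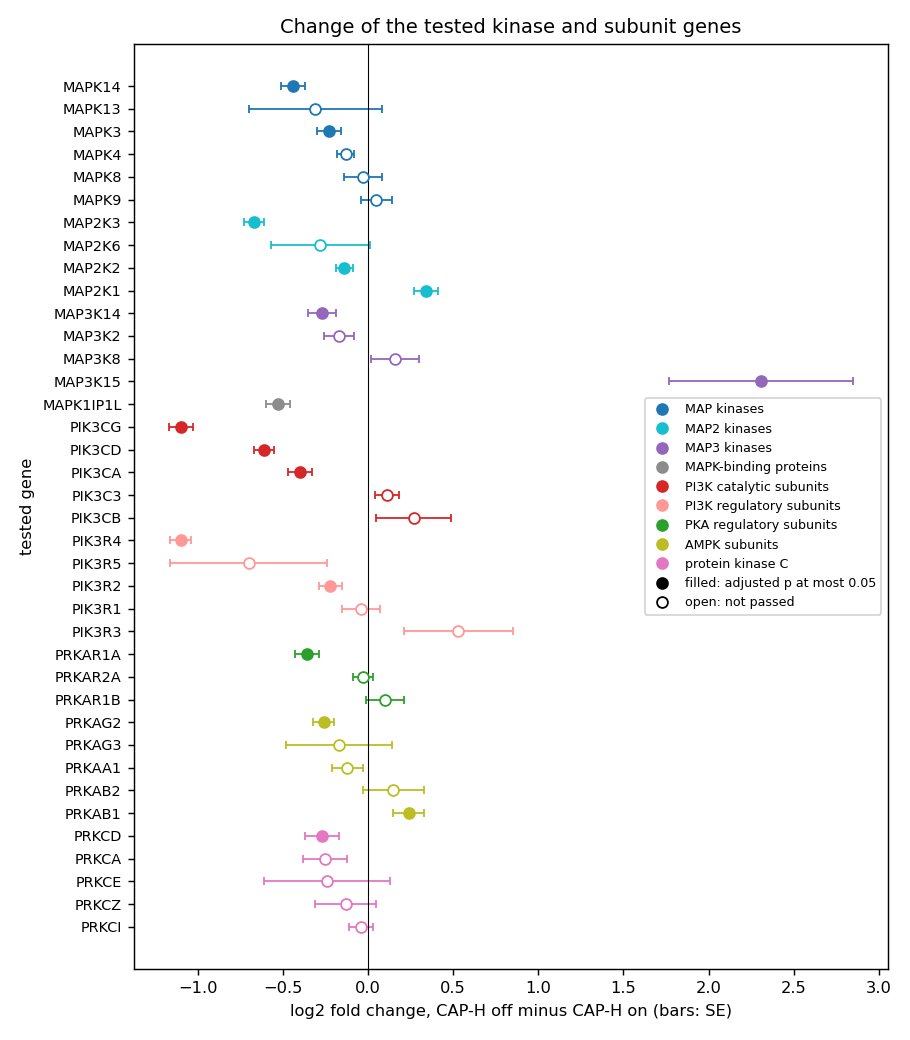
Log2 fold change (+dox minus -dox) of the 38 tested genes, with bars for the SE and filled points for an adjusted p of at most 0.05, grouped by family. PIK3CG and PIK3R4, both at -1.10, lie farthest to the left, and MAP3K15, at 2.31 with an SE of 0.54, is alone on the far right.

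The summed level of the 46 genes, in CPM, was 2331, 2328 and 2340 in the -dox libraries and 1850 and 1793 in the +dox ones, which is 78.1% of the -dox mean. Without PIK3R4 and PIK3CG, picked out because they fell most, the summed level was 87.0% of that mean. The 10 PI3K genes had a summed level of 884, 880 and 877 CPM against 549 and 533 CPM, or 61.5%. PIK3CG and PIK3R4 carried most of that drop: the other 8 PI3K genes had a summed level of 368, 362 and 356 CPM against 300 and 297 CPM, or 82.5%, close to the 85.1% of the PKA regulatory subunits. The summed level of the 3 tiers of the MAP kinase cascade was 89.4% of its -dox mean, that of the PKC isoforms 90.9% and that of the AMPK subunits 94.2%. No test was made of these sums, and with scaling by library size alone the percentages were 68.9% for the 46 genes, 54.2% for PI3K, 72.8% for PI3K without PIK3CG and PIK3R4, 75.1% for PKA, 78.8% for the cascade, 80.1% for PKC and 83.1% for AMPK.

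**Figure D3:**
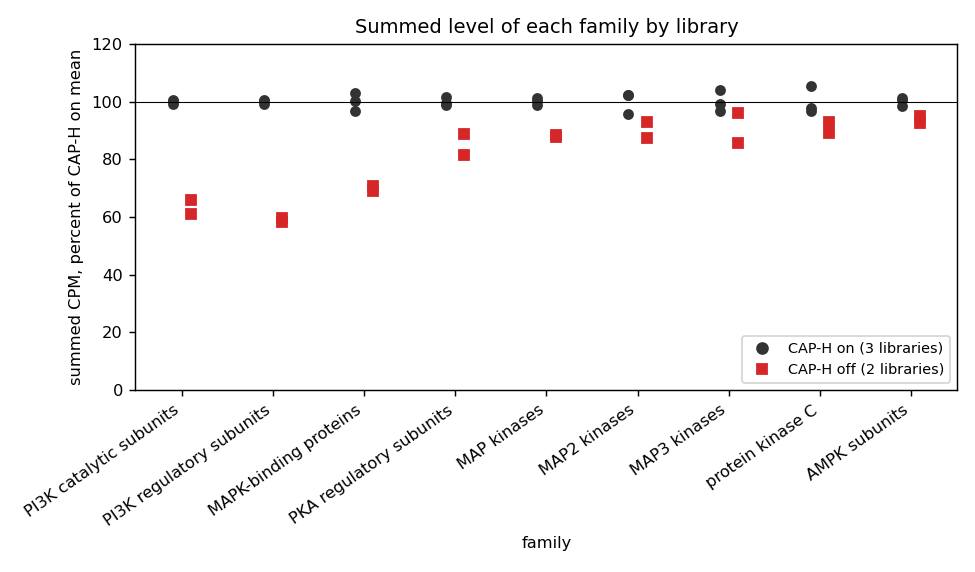
Summed CPM of each family in each library, as a percentage of the family's mean in the -dox libraries. Both PI3K families, which hold PIK3CG and PIK3R4, and the MAPK-binding proteins, a family that is nearly all MAPK1IP1L, lie at 69.9% or below on average in the +dox libraries, and the other families lie at 85.1% or above.

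Of the 5 catalytic subunits of PI3K 3 fell and 2 did not pass, with a median log2 fold change of -0.40. This count and those of the families below stand against 23.7% lower and 22.6% higher over all features. With so few genes per family, the counts are no result about a family. PIK3CG (NM_001199538.1, galGal4 chromosome 1, 14213422 to 14241546), which acts below G protein-coupled receptors, had levels of 244, 238 and 239 CPM without doxycycline and 120 and 105 CPM with it. The groups lay far apart, and the gene fell 2.14-fold (log2 fold change -1.10, SE 0.07, adjusted p = 6.2e-09). PIK3CD (NM_001012696.1, chromosome 21, 3470172 to 3492933), the delta subunit through which the B-cell receptor signals, was at 114, 118 and 108 CPM and then 70.8 and 77.8 CPM. It fell 1.53-fold with no overlap (-0.61, SE 0.06, adjusted p = 6.3e-07). PIK3CA, the widely expressed alpha subunit, went from 76.8, 77.4 and 83.3 CPM to 63.5 and 55.8 CPM (-0.40, SE 0.07, adjusted p = 2.1e-04).

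PIK3CB, the beta subunit, stayed low at 4.37, 4.23 and 5.12 CPM against 5.57 and 5.42 CPM (0.27, SE 0.22, adjusted p = 0.33). PIK3C3, the class III enzyme, was at 57.8, 61.2 and 54.7 CPM against 66.2 and 59.0 CPM, with overlapping groups (0.11, SE 0.07, adjusted p = 0.23). Within each library the ratio of PIK3CG to PIK3CD counts was 2.14, 2.02 and 2.21 without doxycycline and 1.69 and 1.35 with it. This and the other ratios were chosen after the values were seen, and with 3 libraries against 2 an exact permutation test cannot give a p below 0.1. Markers of macrophages and granulocytes, cells that also express PIK3CG and PIK3CD, fell in the same libraries, as given above. Their part in the PI3K result was not tested, and CD14 and MARCO stood at the smallest count throughout.

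Of the 5 regulatory subunits of PI3K 2 fell and 3 did not pass, with a median of -0.22. PIK3R4 (XM_001235240.1, chromosome 2, 42183514 to 42206588) held 272, 280 and 282 CPM without doxycycline and 130 and 131 CPM with it. Neither +dox library came near the lowest -dox one, and PIK3R4 fell 2.14-fold (-1.10, SE 0.06, adjusted p = 1.9e-09). Its partner PIK3C3 did not pass, and the ratio of PIK3R4 to PIK3C3 counts was 4.71, 4.58 and 5.15 against 1.96 and 2.22. The next tested feature, an unnamed gene 45126 bases after PIK3R4, changed by -0.19 (adjusted p = 0.010). A nearer one, 5569 bases before PIK3R4, was not tested. Neighbours of other genes that fell differed. NATD1, 8070 bases after MAP2K3, fell by more than MAP2K3 did. An unnamed gene 9138 bases before PIK3CA rose (0.31, adjusted p = 0.005), and ZMAT3, 14240 bases after PIK3CA, did not pass. CLSTN1, 141 bases after PIK3CD, did not pass (0.19, adjusted p = 0.21).

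PIK3R2 (p85 beta) went from 76.8, 70.5 and 71.6 CPM to 60.5 and 65.3 CPM (-0.22, SE 0.07, adjusted p = 0.013). That call was lost without -dox replicate 1 (-0.18, adjusted p = 0.057) or +dox replicate 1 (-0.17, adjusted p = 0.17). PIK3R1 (p85 alpha), which stabilises the class IA catalytic subunits, was at 34.5, 26.7 and 30.3 CPM against 30.2 and 29.4 CPM, and the groups overlapped (-0.04, SE 0.11, adjusted p = 0.79). PIK3R3 was low at 2.47, 2.39 and 1.57 CPM against 2.61 and 3.74 CPM (0.53, SE 0.32, adjusted p = 0.19). PIK3R5 (p101), a partner of the gamma subunit, had 24, 18 and 15 counts against 7 and 9 (-0.70, SE 0.46, adjusted p = 0.22), and it passed the filter only through the -dox libraries.

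**Figure D4:**
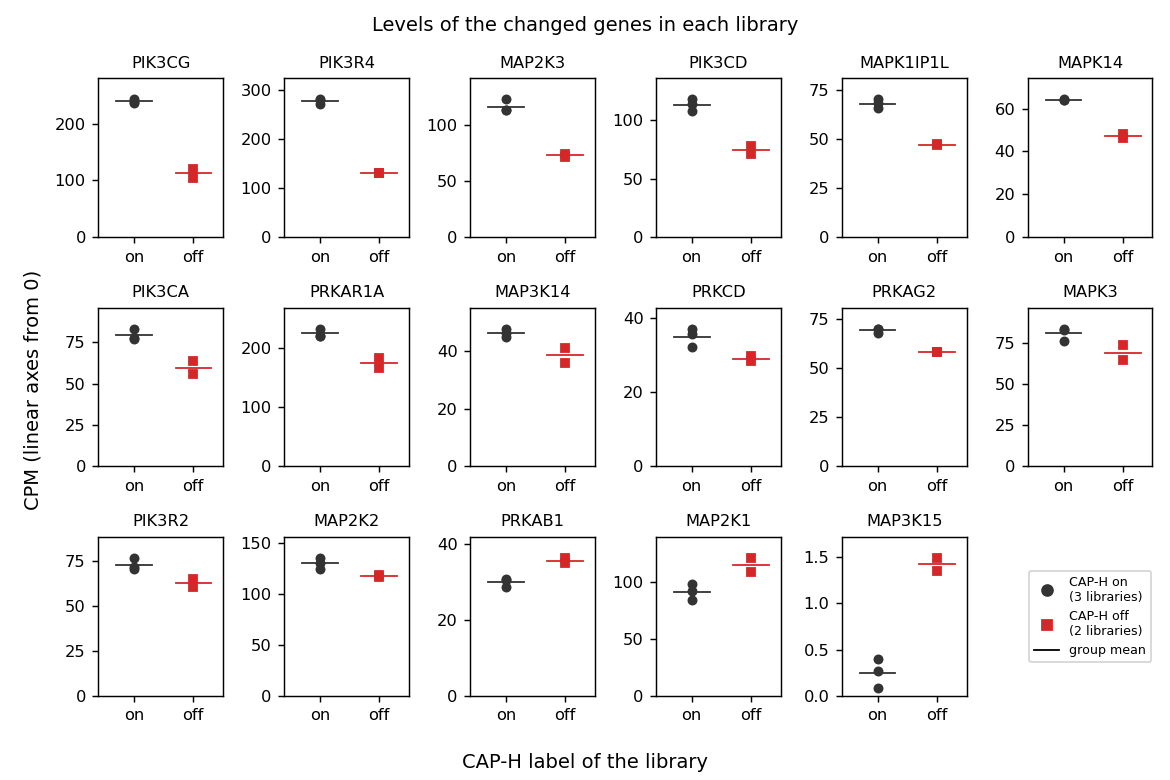
CPM in each library of the 17 genes that changed, ordered by log2 fold change, 1 panel per gene with linear axes that start at 0; dots are the 3 -dox libraries, squares the 2 +dox libraries and lines the group means. The groups do not overlap in any of these panels, but the genes were chosen by adjusted p, which favours this, so it adds no support to the calls. Over all tested features the groups do not overlap in 64.9%. In PIK3CG and PIK3R4 the squares stand at 131 CPM or less against 238 CPM or more for the dots.

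In the first tier of the MAP kinase cascade 1 of 4 tested MAP3 kinases fell and 1 rose. MAP3K14 (NIK), the kinase of non-canonical NF-kappa-B signalling, went from 46.2, 47.7 and 44.8 CPM to 35.7 and 41.1 CPM (-0.27, SE 0.08, adjusted p = 0.014). The call was lost without -dox replicate 2 (-0.25, adjusted p = 0.053) or +dox replicate 1 (-0.17, adjusted p = 0.21). MAP3K15 (chromosome 1, 119632294 to 119704003), of the ASK group of stress kinases, had 9, 4 and 1 counts against 16 and 16, so its rise (2.31, SE 0.54, adjusted p = 0.0022) rests on few counts. It reached the filter only through the +dox libraries, and the size of its fitted fold change depends on the prior count. MAP3K2 (MEKK2) was at 45.3, 38.5 and 43.4 CPM against 35.8 and 39.9 CPM (-0.17, SE 0.09, adjusted p = 0.14), and MAP3K8 (TPL2) at 15.3, 13.2 and 13.2 CPM against 15.1 and 16.2 CPM (0.16, SE 0.14, adjusted p = 0.37). Both overlapped between the groups.

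The second tier held the only well-counted rise of the cascade beside its deepest fall. MAP2K3 (MKK3; NM_001012787.1, chromosome 14, 4489592 to 4502733), an activator of p38, was at 113, 123 and 113 CPM and then at 74.3 and 71.6 CPM, a 1.60-fold fall with no overlap (-0.67, SE 0.06, adjusted p = 1.5e-07). MAP2K1 (MEK1; chromosome 10, 17965072 to 17996405) went the other way, from 84.2, 92.2 and 97.9 CPM to 121 and 109 CPM (0.34, SE 0.07, adjusted p = 5.9e-04). With library size alone MAP2K1 came to 0.16 (adjusted p = 0.045). DESeq2 on all features gave it 0.20 (adjusted p = 0.059), and on the filtered features it passed. Its close relative MAP2K2 (MEK2) was at 124, 130 and 135 CPM against 118 and 116 CPM (-0.14, SE 0.05, adjusted p = 0.036), and that call was lost when any of the 4 libraries other than -dox replicate 1 was left out (-0.12 to -0.16, adjusted p from 0.078 to 0.20) and by DESeq2 on the filtered features (-0.14, adjusted p = 0.11). The ratio of MAP2K1 to MAP2K2 counts was thus 0.679, 0.710 and 0.726 without doxycycline and 1.02 and 0.942 with it. MAP2K6 (MKK6), also of the p38 branch, was low at 4.90, 3.41 and 3.72 CPM against 4.22 and 2.43 CPM (-0.28, SE 0.29, adjusted p = 0.46).

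Among 6 tested MAP kinases 2 fell and 4 did not pass, with a median of -0.18. MAPK14 (p38 alpha; chromosome 26, 134235 to 155388) had nearly the same level in each library of a group, 64.4, 64.0 and 64.2 CPM against 46.3 and 48.2 CPM. It fell 1.36-fold (-0.44, SE 0.07, adjusted p = 5.1e-05). MAPK13 (p38 delta), 4420 bases further along, was at 1.59, 1.71 and 2.48 CPM against 1.18 and 1.87 CPM (-0.31, SE 0.39, adjusted p = 0.54). MAPK3 (ERK1) went from 82.8, 83.5 and 75.8 CPM to 73.3 and 64.6 CPM (-0.23, SE 0.07, adjusted p = 0.013). The call was lost without -dox replicate 2 (-0.21, adjusted p = 0.059) or +dox replicate 3 (-0.14, adjusted p = 0.24).

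MAPK4, an atypical ERK for which the reference table also gives the name MAPK6, was at 126, 115 and 123 CPM against 110 and 111 CPM (-0.13, SE 0.05, adjusted p = 0.065). It passed as lower without -dox replicate 2 (-0.16, adjusted p = 0.032), without the filter (-0.16, adjusted p = 0.034), by DESeq2 on all features (-0.26, adjusted p = 0.0049) and with library size alone (-0.31, adjusted p = 1.9e-04). The JNK genes overlapped between the groups. MAPK8 (JNK1) had 24.7, 24.2 and 27.2 CPM against 23.5 and 26.2 CPM (-0.03, SE 0.11, adjusted p = 0.85), and MAPK9 (JNK2) had 29.3, 31.6 and 33.0 CPM against 32.6 and 31.9 CPM (0.05, SE 0.09, adjusted p = 0.71). MAPK1IP1L (chromosome 5, 56161964 to 56172734), one of the MAPK-binding proteins, was at 65.7, 70.5 and 68.3 CPM against 47.0 and 47.5 CPM and fell 1.44-fold (-0.53, SE 0.07, adjusted p = 1.0e-05).

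Of the 3 regulatory subunits of PKA 1 fell. PRKAR1A (chromosome 18, 8135109 to 8151335) went from 220, 220 and 232 CPM to 183 and 166 CPM (-0.36, SE 0.07, adjusted p = 4.5e-04), with no overlap. PRKAR2A (type II alpha) was at 87.6, 85.5 and 84.6 CPM against 87.0 and 81.5 CPM (-0.03, SE 0.06, adjusted p = 0.71) and PRKAR1B (type I beta) at 24.0, 23.4 and 21.2 CPM against 25.0 and 24.0 CPM (0.10, SE 0.11, adjusted p = 0.50). The ratio of PRKAR1A to PRKAR2A counts moved from 2.51, 2.57 and 2.75 to 2.10 and 2.04.

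Among 5 tested AMPK subunits 1 fell, 1 rose and 3 did not pass. PRKAG2 (a gamma subunit, which binds AMP) was at 69.9, 67.7 and 70.0 CPM against 57.9 and 58.0 CPM (-0.26, SE 0.06, adjusted p = 0.0032). PRKAB1 was at 30.4, 30.8 and 28.7 CPM against 34.8 and 36.2 CPM (0.24, SE 0.09, adjusted p = 0.035). Its call was lost when any of the 5 libraries was left out (0.21 to 0.27, adjusted p from 0.059 to 0.15) and came to 0.06 (adjusted p = 0.61) with library size alone, to 0.21 (adjusted p = 0.096) without the filter and to 0.11 and 0.25 (adjusted p = 0.55 and 0.072) by DESeq2 on all and on the filtered features. PRKAA1, the catalytic alpha subunit, had overlapping groups at 39.7, 44.7 and 46.0 CPM against 42.3 and 36.9 CPM (-0.12, SE 0.09, adjusted p = 0.29). PRKAB2 (0.15, SE 0.18, adjusted p = 0.52) and PRKAG3 (-0.17, SE 0.31, adjusted p = 0.68), which overlaps CYP27A1 in the files, were at 8.13 CPM or less in every library.

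Of 5 tested PKC isoforms 1 fell and 4 did not pass, with log2 fold changes from -0.27 to -0.04. PRKCD (delta), which restrains B-cell activation in mice, was at 37.2, 35.6 and 32.1 CPM against 28.5 and 29.7 CPM (-0.27, SE 0.10, adjusted p = 0.028), without overlap. That call was lost without -dox replicate 1 (-0.22, adjusted p = 0.12), -dox replicate 2 (-0.26, adjusted p = 0.080), +dox replicate 1 (-0.25, adjusted p = 0.12) or +dox replicate 3 (-0.30, adjusted p = 0.056), and by DESeq2 on the filtered features (-0.27, adjusted p = 0.063). PRKCI, the isoform of highest level among those with a row, overlapped between the groups at 64.3, 58.4 and 64.5 CPM against 61.8 and 59.5 CPM (-0.04, SE 0.07, adjusted p = 0.65). PRKCB and PRKCQ were matched to no row, so the main isoform of these cells cannot be told. PRKCA (alpha), a conventional isoform that needs calcium, was at 22.5, 20.3 and 19.4 CPM against 19.6 and 15.5 CPM (-0.25, SE 0.13, adjusted p = 0.14), and without +dox replicate 1 it passed as lower (-0.43, adjusted p = 0.036). PRKCZ (zeta; -0.13, SE 0.18, adjusted p = 0.58) and PRKCE (epsilon; -0.24, SE 0.37, adjusted p = 0.62) were at 9.76 CPM or less in every library.

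Other genes of these pathways were counted from lists, many of whose genes had no row. Of 35 listed cyclic AMP genes 13 had a row, of 23 AKT and mTOR genes 12, and of 19 AMPK-linked genes 11. The counts below are of the tested genes. Of 5 tested kinases that MAP kinases activate 3 fell and 1 rose, with a median of -0.23. RPS6KA1 (RSK1), a target of ERK, fell from 113 ± 4.07 to 52.3 ± 0.401 CPM (-1.11, SE 0.06, adjusted p = 5.5e-10), and MKNK1, which phosphorylates eIF4E, from 27.6 ± 1.69 to 14.6 ± 2.93 CPM (-0.93, SE 0.13, adjusted p = 3.4e-05). Of 8 phosphatases and feedback inhibitors of the cascade 2 fell and 6 did not pass (median -0.02), and those that fell were the feedback inhibitors SPRY2 (-0.91, SE 0.20, adjusted p = 0.0016) and SPRED2 (-0.44, SE 0.10, adjusted p = 0.0023). In the list of Ras and Raf genes 3 of 15 rose and 2 fell (median 0.02). HRAS rose from 9.34 ± 1.59 to 21.0 ± 2.46 CPM (1.14, SE 0.16, adjusted p = 2.2e-05), and NF1, a negative regulator of Ras whose span overlaps EVI2A, fell (-0.47, SE 0.06, adjusted p = 1.1e-05). LAMTOR3 and RASA3 also rose and KSR1 also fell, while RASA1 and RASA2 did not pass. In a list of transcription factors that act below the cascade, only some of them early response genes, 4 of 8 fell and 1 rose (median -0.19). Those that fell were ELK3, SRF, ATF2 and MYC (MYC -0.23, SE 0.05, adjusted p = 0.0016). JUN rose from 10.2 ± 1.23 to 21.1 ± 0.606 CPM (1.03, SE 0.14, adjusted p = 1.9e-05), FOS and FOSL2 did not pass, and EGR1 was too low to be tested.

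In the list of AKT and mTOR genes 6 of 11 fell and 2 rose, with a median of -0.22. It includes PIK3AP1, among those that fell, and PIK3IP1, among those that rose, so it is not only of genes downstream of PI3K. PIK3AP1 (BCAP), the adaptor that brings PI3K to the B-cell receptor, fell from 178 ± 4.17 to 114 ± 1.18 CPM (-0.65, SE 0.06, adjusted p = 2.1e-07), while MTOR, a growth kinase gene, fell too (-0.33, SE 0.06, adjusted p = 1.7e-04). Of 10 cyclic AMP genes 4 fell and 2 rose (median -0.15). PKIG, an inhibitor of the catalytic subunit of PKA, fell from 312 ± 12.0 to 121 ± 1.97 CPM (-1.36, SE 0.07, adjusted p = 2.4e-10), while CREB1, the cyclic AMP response factor gene, fell (-0.38, SE 0.07, adjusted p = 2.0e-04). Genes linked to phospholipase C, diacylglycerol and PKC fell in 4 of 10 cases and rose in 2 (median -0.05). RACK1, a ribosomal protein that also binds PKC, rose from 1044 ± 30.6 to 1662 ± 63.4 CPM (0.67, SE 0.04, adjusted p = 3.4e-09). Of 10 AMPK-linked genes 1 rose, ACACA (0.24, SE 0.06, adjusted p = 0.0051; 0.05, adjusted p = 0.47 with library size alone, and 0.10, adjusted p = 0.30 by DESeq2 on all features), 1 fell, CAB39 (-0.33, SE 0.06, adjusted p = 4.6e-04), and 8 did not pass. These shares stand against the background of 23.7% lower and 22.6% higher.

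The authors' deposited table, which holds 3798 transcripts with adjusted p-values up to 0.05, lists 14 of the 46 genes, 13 of them negative and 1 positive. The signs of all its transcripts were not counted here, so this split is no result about these genes. The 14 stand against 3798 transcripts listed in all, where counts were deposited for 17036 rows, and this share was not tested. The 13 negative values are all lower than those found here, and whether the scaling differs was not tested. The authors' table does not state its direction, and for 3479 of the 3479 transcripts in it that were compared here its sign was that of +dox minus -dox. All 14 changed here as well, and MAP2K1, MAP2K2 and PRKAB1 changed here without being listed there. The authors' table is a comparison of these CAP-H libraries, so the shared calls are no independent support. For PIK3CG the authors' deposited table gives a log2 fold change of -1.20 (adjusted p = 2.3e-28), and for PIK3R4 -1.18 (adjusted p = 3.8e-27). MAP2K3 stands there at -0.73 and MAP3K15 at 2.35 in the authors' deposited table.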

How the data were processed

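The authors deposited whole-number counts per RefSeq transcript on the build galGal4; per the submitters' processing notes the tools named were TopHat2 2.0.8b, Bowtie, FastQC and edgeR 3.2.3, without roles. For the counter and the strand setting, the sources used here name nothing. The smallest deposited count is 1. In 0 of 123 nested pairs of features did the outer one hold fewer counts than the inner one (at least 500 counts), so reads of overlapping features are not separated. Values of 4, 6, 8 or 10 occurred 3851 times and 3, 5, 7 or 9 occurred 3106 times. If only counts of 0 were set to 1, mates of a pair may have been counted separately. If 1 was added to every count, the excess is of odd counts, so this cannot be told. Libraries of a group differed by more than sampling noise (3.28 to 11 times). The authors' deposited table gives log2 fold changes and adjusted p-values, per the file headers.

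By accession, 52.3% of 17036 rows received a symbol, through RefSeq's gene table for GRCg7b. Coding lengths were not given, so baseline levels were set per kilobase of span in place of the planned coding length. The test was the quasi-likelihood one of edgeR 4.0.16 (R 4.3.3), with filterByExpr, TMM and a threshold of 0.05. On simulated counts for the 10079 features the test recovered 90% of log2 changes of 1 and 74% of those of 0.5, among 200 changed features, with 5.75% of its calls false. In the simulation the changes were few and had random signs, where in the data 46.3% of features changed. These rates therefore cannot be carried over to the data. Alternatives were DESeq2 1.42.0, other scalings and filters, each library left out and a replicate block. Genes named with values were those that changed by at least 0.5, the top member by level and the 2 of lowest p per family, and the 2 of lowest p per list, of which 1 gene is not reported here; all other members were added outside that rule. Members and lists were chosen with earlier results of these data known.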

Additional observations from a re-analysis of the deposited data

How the results depend on the processing

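Of the 17 changed genes 10 kept their call and direction under each of the 12 alternatives tried: PIK3CG, PIK3R4, PIK3CD, PIK3CA, MAP2K3, MAPK14, MAPK1IP1L, PRKAR1A, PRKAG2 and MAP3K15. Of these, MAP3K15 had at most 16 counts per library and passed the filter only through the +dox libraries, where it is high. With so few counts, its kept call is no sign of stability. No member that passed in any fit reversed its direction (0). With library size alone the median of all features shifted by -0.18 (log2), 2 members rose and 20 fell, and over all features 1272 rose and 4119 fell; MAP3K2, MAPK4, PRKAA1, PRKAR2A, PRKCA and PRKCI then passed as lower. DESeq2 on every feature gave 1 member that rose and 16 that fell, and 1191 features that rose against 3046 that fell. On the filtered features, an alternative chosen after seeing the data, it gave 2 and 12 members, and 2036 and 2119 features. Leaving out each library in turn left 13 to 15 changed members, 2 that rose and 11 to 13 that fell, with 1837 to 2171 features higher and 2002 to 2277 lower. A fit with the replicate number as a block gave 13 changed members (2 higher, 11 lower) and lost MAP2K2, MAP3K14, PRKAB1 and PRKCD. Over all features it gave 1865 higher and 1991 lower. Replicate 2 has no +dox library and adds nothing to the fold changes of the block fit, so that fit is close to leaving out -dox replicate 2. Same-numbered libraries did not deviate together (correlations of -0.0108 and -0.0287), so the numbers were not taken as pairs. Subtracting 1 from each count or RLE scaling changed no member's call. The planned comparison of coding length with span was not run. Genes under about 5 CPM have SEs of 0.22 or more, so changes of modest size were not detectable there.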
